A study of Mus musculus with 6 samples.

Results

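The genes described here encode the subunits, activators, inhibitor and assembly chaperones of the proteasome in mouse liver. They were chosen by symbol: a gene was a member if its array probe carried an accession that RefSeq assigns to a name beginning with Psma, Psmb, Psmc, Psmd, Psme, Psmf or Psmg and a number. Psmb8 and Psmb9, interferon-induced catalytic subunits, were left out of the set and are given beside it. Of 48 such genes on the array, 46 passed the filter on dim probes, out of 20658 features tested, 13311 of them with a gene symbol. The names also bring in Psmc3ip, a partner of meiotic recombinases, and Psme3ip1, a protein that binds the activator encoded by Psme3.

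All mice were male, lacked apolipoprotein E (Apoe-deficient, C57BL/6J) and ate a Western diet of 0.15% cholesterol and 20% palm oil for 11 weeks. The squalene diet added 1% squalene, which the labels put at a dose of 1 g per kg of mouse (10 mice), and the Western diet was given without it (9 mice). Loss of apolipoprotein E in every animal means that both diets were studied in hypercholesterolaemic mice, and no wild-type or chow-fed group was part of the comparison. RNA was combined into squalene pools 5, 6, 7 and 8 and Western pools 1, 2, 3 and 4, each of 2 or 3 animals, and every two-colour array carried 1 pool of each diet. The 6 arrays thus gave 4 pool pairs: pair 1 (pools 5 and 1) and pair 4 (pools 8 and 4) had squalene in the red dye Cy5, while pair 2 (pools 6 and 2) and pair 3 (pools 7 and 3) had it in the green dye Cy3. The p-values measure the spread between these pools, which averages out animals within a pool. Each array had 62976 spots, 3671 of them controls. Of the spots that were not controls, 48.67% to 54.16% passed the scanner's test for signal above background in a channel. Over all spots, 0 were saturated. Hepatocyte markers averaged 15.769 to 15.965 log2 intensity in squalene pools and 15.716 to 15.936 in Western pools.

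The proteasome is the main protease of the cytosol and nucleus, and it degrades proteins that carry ubiquitin chains. Its 20S core is a barrel with alpha rings at the ends and beta rings inside, and the beta subunits Psmb5, Psmb6 and Psmb7 carry the active sites. The 19S regulatory particle caps the barrel, recognises ubiquitin, removes it and unfolds the substrate with a ring of ATPases, and other activators can take its place. Interferon gamma exchanges the active subunits for Psmb8, Psmb9 and Psmb10 and raises the activator Psme1-Psme2, which changes the peptides offered to T cells. When proteasome activity is short, the transcription factor NRF1 (Nfe2l1) raises subunit genes together.

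Squalene in the Western diet was not accompanied by a detectable common shift of these genes. The mean log2 ratio, squalene over Western, ran from -0.11 for Psmb2 to 0.09 for Psme3ip1, and the largest of these is a difference of -7.05% of the Western level. The median of the 46 genes was 0.02, against 0.0029 over all features, with 31 means above 0 and 15 below. Means above 0 numbered 10694 over all 20658 features and 6631 over the 13311 with a symbol. By pair, the median member was at 0.04, 0.04, -0.05 and -0.03, so the 2 pairs above 0 were matched by 2 below. In limma with Benjamini-Hochberg adjustment over all features 0 of 46 genes passed an adjusted p of 0.05, and 0% of all features did. At an unadjusted limma p under 0.05 there were 0 members higher and 0 lower, against 1.06% and 1.42% of all features.

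Few of the genes, as of all features, kept 1 sign across the pairs. A ratio above 0 in all 4 pairs was found for 0 members (3.33% of all features) and below 0 in all 4 for 1 member, Psmb2 (3.06% of all features). Levels in the squalene pools lay entirely above those in the Western pools for 0 of 46 genes and entirely below for 0 of 46, against 0.378% and 0.397% of all features. Levels in the 2 diets thus overlapped for every measured proteasome gene, as for nearly all features. The levels are single-channel values that still hold any dye effect of a probe, and so do all orders of pools given below. The 95% interval of the mean ratio from the limma fit stayed within a 1.3-fold difference in either direction for 45 of 46 genes and within 1.5-fold for all 46. The wider one was that of Psmb10, from -0.32 to 0.40, and the next widest was that of Psmg4, from -0.32 to 0.29. The intervals come from a fit with a dye term, so they leave out any difference between the 2 dye orientations.

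**Figure D1:**
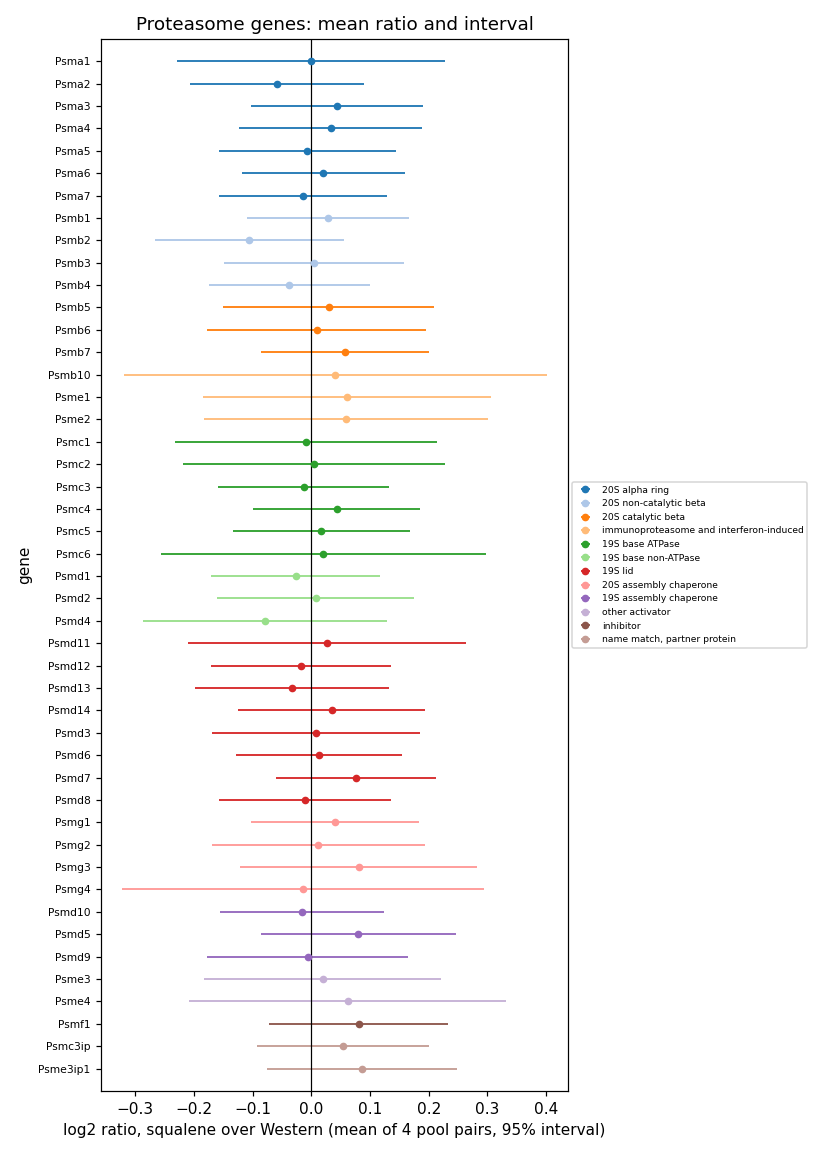
Mean log2 ratio, squalene over Western, of each of the 46 measured genes (points, n = 4 pool pairs) with its 95% interval from the limma fit (lines), coloured by role and listed by class from top to bottom. Every interval includes 0, and the means lie between -0.11 and 0.09.

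The 3 interferon-induced genes of the set took their largest ratios from 1 pool pair. Psmb10, which replaces the trypsin-like catalytic subunit in immunoproteasomes, read 14.28, 13.55, 13.69 and 13.65 log2 intensity in squalene pools 5 to 8 and 13.64, 13.67, 13.86 and 13.83 in Western pools 1 to 4. Pool 5 alone stood above all Western pools, and the other squalene pools overlapped them or lay below. Psme1, the alpha subunit of the interferon-induced activator, read 13.02, 12.64, 12.59 and 12.57 in squalene pools and 12.59, 12.69, 12.65 and 12.65 in Western pools. Psme2, its beta subunit, read 14.34, 13.79, 13.62 and 13.75 in squalene pools and 13.93, 13.78, 13.73 and 13.83 in Western pools. For both, the pool that stood out was again pool 5.

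In ratios, pair 1 gave 0.64 for Psmb10, 0.43 for Psme1 and 0.41 for Psme2, while the other pairs ran from -0.18 to 0.01 over the 3 genes. Both arrays of pair 1 showed it: 0.67 and 0.62 for Psmb10, 0.43 and 0.44 for Psme1, and 0.47 and 0.34 for Psme2. A second Psme2 probe read 0.45, -0.07, -0.10 and 0.01 in the 4 pairs. The means over pairs were 0.04 ± 0.40, 0.06 ± 0.25 and 0.06 ± 0.24 (SD, n = 4) for Psmb10, Psme1 and Psme2, with unadjusted limma p of 0.782, 0.549 and 0.561. Without pair 1 they were -0.17, -0.07 and -0.06, and without pair 4 they were 0.25, 0.19 and 0.18. Pair 1 was alone of its sign for Psmb10 and Psme1, and with smaller ratios for Psme3ip1 and Psmf1, so for 4 of 46 genes (8.7%), against 11.4% of all features.

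The genes left out of the set by name moved in the same pair. Psmb8 was at 0.75, -0.27, -0.17 and -0.15 in pairs 1 to 4 (mean 0.04 ± 0.48, SD, n = 4) and Psmb9 at 0.96, -0.36, 0.09 and -0.28 (mean 0.10 ± 0.61, SD, n = 4). Of 10 listed genes of interferon response and peptide loading, all 10 were above 0 in pair 1, with a median of 0.56. In pairs 2, 3 and 4, 5, 1 and 1 were above 0. Of all 20658 features, 10878, 9952, 9870 and 10605 were above 0 in pairs 1 to 4. Chosen after their values were seen, Gbp2 was at 1.42, Irf1 at 1.39 and Tap1 at 0.69 in pair 1; these are an interferon-induced GTPase, an interferon-responsive transcription factor and a peptide transporter. None of the 10 reached an unadjusted limma p under 0.05 over the 4 pairs (0 higher, 0 lower).

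Markers of lymphocytes and natural killer cells moved with the same pair. The mean over 12 measured markers was 0.44 in pair 1 and -0.005, -0.189 and 0.017 in pairs 2 to 4. In pair 1, 11 of 12 were above 0, against 10878 of all 20658 features. Their mean level was 7.867 to 8.53 log2 intensity in squalene pools and 7.872 to 8.086 in Western pools. Single markers in pair 1 ran from -0.10 for Cd4 to 1.11 for Cd79b. Lists of other cell types were above 0 in pair 1 too, for 9 of 12 macrophage and 9 of 10 fibroblast and stellate markers. For hepatocyte markers it was 7 of 12 and for red cell markers 4 of 7. The defining markers Cd8a, Cd79a and Klrb1c did not pass the filter on dim probes. The part of lymphocytes, natural killer cells or other cell types in the values of Psmb10, Psme1 and Psme2 was not tested. In whole liver RNA, more cells of a type and more RNA per cell cannot be told apart.

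**Figure D2:**
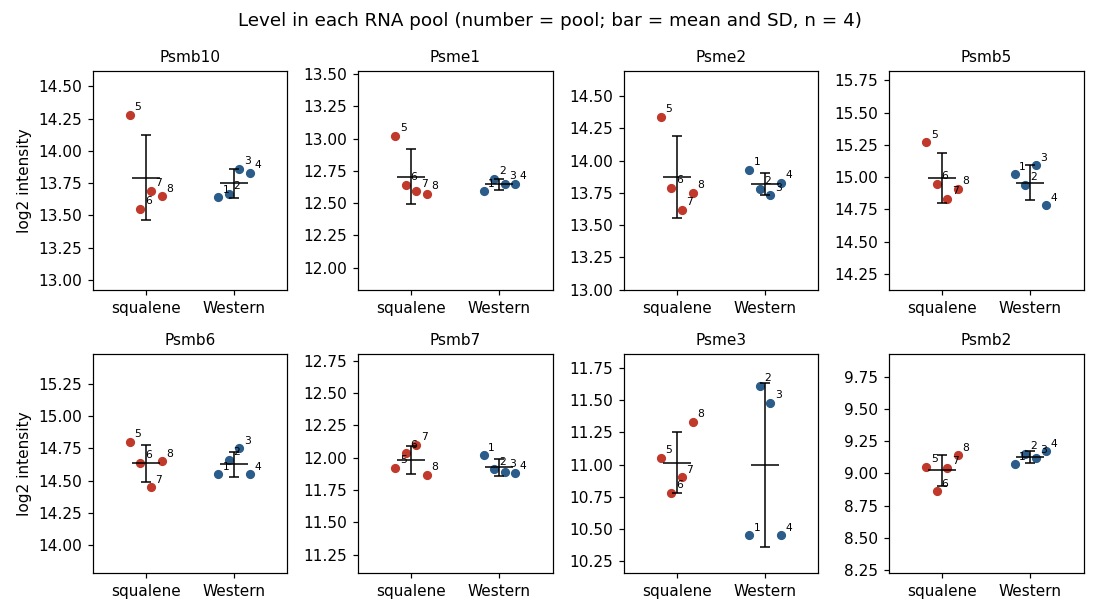
Log2 intensity of 8 proteasome genes in each RNA pool, squalene pools (red) left of Western pools (blue), each point numbered by its pool; bars give the mean and SD (n = 4). Squalene pool 5 stands above the other squalene pools for Psmb10, Psme1 and Psme2, and Psme3 divides the Western pools into 10.45 and 10.45 for pools 1 and 4 and 11.61 and 11.48 for pools 2 and 3.

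The promoters of 5 genes are shown, chosen by role: the interferon-induced Psmb10, Psme1 and Psme2, and the catalytic subunits Psmb5 and Psmb6. Each is the stretch from 250 bases before to 50 bases after a RefSeq start (GRCm38.p6), 5′ to 3′ on the gene's strand, and capitals mark a motif match. The RefSeq table held a promoter for 39 of the 46 genes, and none for the catalytic subunit Psmb7. Where it gave several starts the first was taken.
Psmb10, chr8:105938343-105938642, minus strand: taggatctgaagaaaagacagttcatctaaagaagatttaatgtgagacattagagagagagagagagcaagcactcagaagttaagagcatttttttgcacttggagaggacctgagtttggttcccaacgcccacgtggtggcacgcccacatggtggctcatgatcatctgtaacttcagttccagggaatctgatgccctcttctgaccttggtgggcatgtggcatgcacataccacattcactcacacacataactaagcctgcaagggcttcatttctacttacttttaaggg
Psme1, chr14:55578244-55578543, plus strand: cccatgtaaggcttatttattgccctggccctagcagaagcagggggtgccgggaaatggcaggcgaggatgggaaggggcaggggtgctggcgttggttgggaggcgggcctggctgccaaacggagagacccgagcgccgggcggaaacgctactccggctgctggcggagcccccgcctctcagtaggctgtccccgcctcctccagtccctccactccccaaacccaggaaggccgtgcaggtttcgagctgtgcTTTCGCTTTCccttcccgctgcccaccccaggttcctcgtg
Psme2, chr14:55591052-55591351, minus strand: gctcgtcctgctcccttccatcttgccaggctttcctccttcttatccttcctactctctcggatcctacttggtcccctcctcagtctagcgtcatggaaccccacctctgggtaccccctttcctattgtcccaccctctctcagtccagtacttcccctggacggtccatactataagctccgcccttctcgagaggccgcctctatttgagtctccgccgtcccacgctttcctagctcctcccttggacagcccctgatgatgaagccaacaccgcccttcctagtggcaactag
Psmb5, chr14:54617946-54618245, minus strand: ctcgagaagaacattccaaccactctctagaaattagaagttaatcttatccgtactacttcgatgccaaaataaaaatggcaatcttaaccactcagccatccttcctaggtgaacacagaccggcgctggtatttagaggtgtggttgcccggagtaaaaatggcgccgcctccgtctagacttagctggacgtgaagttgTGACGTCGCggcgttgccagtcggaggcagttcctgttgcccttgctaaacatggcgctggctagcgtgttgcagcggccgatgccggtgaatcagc
Psmb6, chr11:70525107-70525406, plus strand: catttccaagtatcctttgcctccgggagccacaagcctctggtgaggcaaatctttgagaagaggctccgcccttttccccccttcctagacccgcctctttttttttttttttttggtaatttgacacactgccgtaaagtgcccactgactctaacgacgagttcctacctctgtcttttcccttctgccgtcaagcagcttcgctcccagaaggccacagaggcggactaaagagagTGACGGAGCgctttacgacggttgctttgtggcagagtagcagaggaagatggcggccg
The capitals in Psme1 are the reverse-strand reading of GAAANNGAAA, the core of an interferon-stimulated response element, and begin 10 bases into the transcript. In Psmb5 and Psmb6 they are TGACNNNGC, the core of the antioxidant response element that NRF1 and its relatives bind, and begin at positions -47 and -9 from the start. Both strands were searched, and no other motif overlapped the match shown.

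Searched over both strands, GAAANNGAAA was in 5 of 39 proteasome promoters (12.8%), those of Psmb3, Psmd4, Psmd9, Psme1 and Psmg4, and in 3.44% of all 32851 promoters in the table. The antioxidant core TGACNNNGC was in 6 of 39 (15.4%), Psmb5, Psmb6, Psmc6, Psmd12, Psmd9 and Psme4, and in 12.4% of all promoters. TTCNNNGAA, the core of the gamma-activated site of interferon-responsive promoters, was in 2 of 39 (5.13%), Psmd2 and Psmg1, and in 8.3% of all promoters. The CCAAT box was in 13 of 39 (33.3%) and in 37.4% of all promoters. Of the 3 interferon-induced genes, only Psme1 held any of the 3 element cores in its window, which says only that these letters are not in the stretches shown for Psmb10 and Psme2.

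**Figure D3:**
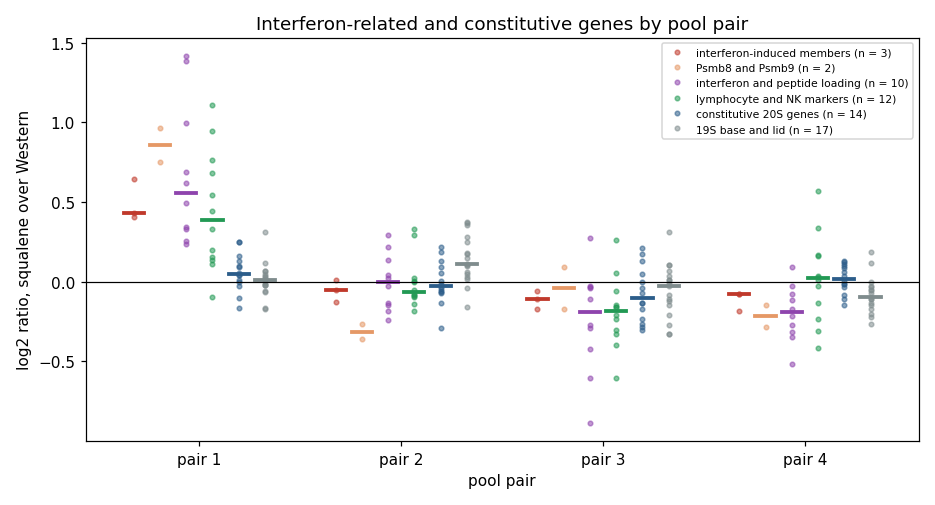
Log2 ratio, squalene over Western, of each gene (points) in each pool pair, by gene group, with the group median as a bar. The interferon-induced members, Psmb8 and Psmb9 and the interferon and lymphocyte lists lie highest in pair 1, where the constitutive 20S and the 19S genes have medians of 0.05 and 0.01.

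The constitutive core was near 0 in pair 1 too, with a median of 0.05 over its 14 genes, against 0.43 for the 3 interferon-induced ones. Over the 4 pairs its median was 0.0065, with 11, 6, 4 and 8 of 14 genes above 0 in pairs 1 to 4. Of all 20658 features, 10878, 9952, 9870 and 10605 were. Among the catalytic subunits, Psmb5, which carries the chymotrypsin-like site, read 15.27, 14.95, 14.83 and 14.91 log2 intensity in squalene pools and 15.02, 14.94, 15.09 and 14.78 in Western pools. Squalene pool 5 was the highest of the 8 and Western pool 4 the lowest, with the other pools of both diets mixed between them. Psmb6, with the caspase-like site, read 14.80, 14.64, 14.45 and 14.65 in squalene pools and 14.55, 14.66, 14.75 and 14.55 in Western pools. Squalene pools 5 and 7 were the highest and the lowest, with the Western pools between them.

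With the brighter Psmb5 probe, the 2 genes had similar ratios by pair, at 0.25, 0.00, -0.26 and 0.13 for Psmb5 and 0.25, -0.02, -0.30 and 0.10 for Psmb6. Psmb7, with the trypsin-like site, had the sign opposite to Psmb6 in all 4 pairs, at -0.10, 0.13, 0.21 and -0.01. Its levels were 11.92, 12.04, 12.10 and 11.87 in squalene pools and 12.02, 11.91, 11.89 and 11.88 in Western pools. The means were 0.03 ± 0.22 for Psmb5, 0.0088 ± 0.23 for Psmb6 and 0.06 ± 0.14 for Psmb7 (SD, n = 4). Unadjusted limma p was 0.692, 0.908 and 0.350. A second Psmb5 probe read -0.09, 0.17, 0.19 and -0.09 in the 4 pairs, nearer to Psmb7 than to Psmb6. It averaged 0.04 but shared the sign of the first in 1 of 4 pairs. The pair-by-pair values of Psmb5 therefore rest on its brighter probe. The dye terms of the fit were 0.16 for Psmb5, 0.17 for Psmb6 and -0.11 for Psmb7. Dye and the pools of an orientation cannot be told apart in these patterns.

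Of the other beta subunits, which hold the ring together, Psmb2 had the smallest unadjusted p of all 46 genes. It read 9.05, 8.86, 9.04 and 9.14 log2 intensity in squalene pools and 9.07, 9.15, 9.12 and 9.17 in Western pools. Squalene pool 6 was the lowest, pools 5 and 7 were just below the Western pools, and pool 8 lay among them. The ratios were -0.03, -0.29, -0.07 and -0.03, a mean of -0.11 ± 0.12 (SD, n = 4; fold 0.930). Its unadjusted limma p was 0.152, and the Benjamini-Hochberg adjusted p was 1. The 2 arrays of pair 1 disagreed in sign, at -0.10 and 0.05, and without pair 2 the mean was -0.051. Psmb1 had the smallest SD between pairs of any member, 0.04 around a mean of 0.03, Psmb3 averaged 0.0042 ± 0.08 and Psmb4 averaged -0.04 ± 0.08 (SD, n = 4).

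The 7 alpha subunits, which form the gated outer rings, had means from -0.06 for Psma2 to 0.04 for Psma3, with 4 above 0 and 3 below. Psma2 read 13.87, 13.69, 13.48 and 13.79 log2 intensity in squalene pools and 13.77, 13.83, 13.76 and 13.71 in Western pools, so squalene pools held both the highest and the lowest value. Psma3 read 14.01, 14.01, 13.93 and 13.88 in squalene pools and 14.17, 13.82, 13.76 and 13.90 in Western pools, where the extremes belonged to Western pools instead. Unadjusted limma p was 0.355 and 0.479. Psma4, at 0.03 ± 0.08, Psma5, at -0.0071 ± 0.18, Psma6, at 0.02 ± 0.13, Psma7, at -0.01 ± 0.07, and Psma1, at 0.0001 ± 0.19 (SD, n = 4), were the remaining ring members. The tissue-restricted core subunits Psma8, of testis, and Psmb11, of thymus, did not pass the filter on dim probes.

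The 17 genes of the 19S base and lid had a median of 0.0073, but their pair medians were 0.01, 0.11, -0.03 and -0.09. In pair 2, 15 of the 17 were above 0, and in pair 4, 2 of 17, against 9952 and 10605 of all 20658 features. The base ATPases, which thread the substrate into the core, ranged from -0.01 for Psmc3 to 0.04 for Psmc4. Psmc4 read 12.07, 12.03, 12.07 and 11.84 log2 intensity in squalene pools and 12.00, 11.93, 12.03 and 11.87 in Western pools, with squalene pool 8 the lowest of all (mean ratio 0.04 ± 0.05, SD, n = 4). Psmc6 read 10.93, 10.90, 10.65 and 10.67 in squalene pools and 10.87, 10.54, 10.86 and 10.80 in Western pools, and its ratios of 0.07, 0.36, -0.21 and -0.13 averaged 0.02. Psmc5 alternated with the dyes, at 0.31, -0.16, -0.27 and 0.19, and Psmc1, Psmc2 and Psmc3 averaged -0.0086, 0.0045 and -0.01.

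Among the non-ATPase subunits of the base, Psmd4, a receptor for ubiquitin chains, read 13.67, 13.51, 13.33 and 13.51 log2 intensity in squalene pools and 13.63, 13.45, 13.66 and 13.58 in Western pools. Squalene pool 7 was the lowest and pool 5 the highest of the 8. Its mean was -0.08 ± 0.18 (SD, n = 4), with an unadjusted limma p of 0.375, and without pair 3 it was 0.016. The scaffold subunits Psmd1 and Psmd2 averaged -0.03 ± 0.06 and 0.0075 ± 0.22 (SD, n = 4).

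The lid, which removes ubiquitin before degradation, was above 0 for 7 of 8 genes in pair 2 and for 0 of 8 in pair 4. In pairs 1 and 3 it was 3 and 5 of 8. Over all 20658 features, 10878, 9952, 9870 and 10605 were above 0 in pairs 1 to 4. Psmd14, the lid peptidase that cuts the ubiquitin chain off, read 9.92, 10.01, 9.61 and 9.75 log2 intensity in squalene pools and 9.90, 9.83, 9.64 and 9.77 in Western pools. Both diets covered nearly the same range, and the mean was 0.03 ± 0.10 (SD, n = 4). Its structural partner Psmd7 read 10.96, 11.02, 10.95 and 10.83 in squalene pools and 11.13, 10.65, 10.64 and 11.03 in Western pools. The squalene pools lay between Western pools 2 and 3 below and Western pools 1 and 4 above. Its ratios were -0.17, 0.37, 0.31 and -0.20, a mean of 0.08 ± 0.31 (SD, n = 4) with an unadjusted limma p of 0.211. The other lid genes averaged between -0.03 for Psmd13 and 0.03 for Psmd11, with Psmd3 at 0.0073, Psmd6 at 0.01, Psmd8 at -0.01 and Psmd12 at -0.02.

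Among the alternative activators, Psme3, a nuclear activator that works without ubiquitin, varied more between pairs than any other member. It read 11.05, 10.78, 10.90 and 11.33 log2 intensity in squalene pools and 10.45, 11.61, 11.48 and 10.45 in Western pools. Both Western pools labelled with Cy5 were above every squalene pool, and both labelled with Cy3 were below. The ratios of 0.61, -0.83, -0.58 and 0.88 averaged 0.02 ± 0.85 (SD, n = 4), and repeat arrays gave 0.59 and 0.62 in pair 1 and -0.85 and -0.81 in pair 2. The dye term of the fit took up 0.72 of this, and its SE of 0.08 does not contain it. Dye and the pools of an orientation cannot be told apart for this gene.

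Psme4, the activator known from histone turnover in germ cells and after DNA damage, read 9.20, 9.47, 9.08 and 9.08 in squalene pools and 9.42, 9.07, 9.15 and 8.95 in Western pools. The order of the diets changed from pair to pair, at -0.22, 0.40, -0.07 and 0.13, and the mean was 0.06 ± 0.27 (SD, n = 4). Psmf1, an inhibitor of the core known as PI31, read 8.97, 9.30, 9.25 and 9.14 in squalene pools and 9.03, 9.20, 8.99 and 9.11 in Western pools. Its mean was 0.08 ± 0.13 (SD, n = 4), with an unadjusted limma p of 0.235, and pair 1 was the only one below 0, at -0.06.

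A split by dye orientation, with 1 sign in pairs 1 and 4 and the other in pairs 2 and 3, was found for 15 of the 46 genes (32.6%), against 27.8% of all features. Besides Psme3 these were Psma2, Psma3, Psma5, Psma6, Psmb4, Psmb6, Psmb7, Psmc5, Psmd2, Psmd6, Psmd7, Psmd9, Psmd10 and Psmd12. They went both ways: Psmd10 averaged 0.29 in the pairs with squalene in Cy5 and -0.32 in those with it in Cy3, while Psmd7 averaged -0.19 and 0.34. Repeat arrays of a pair lay closer together, with a median difference of 0.0469 for pair 1 and 0.0567 for pair 2 over the 46 genes, against 0.0741 and 0.0714 over all features. Even so, 33 of the 46 genes had the same sign on both arrays of pair 1 and 40 on both of pair 2. The sign of a small ratio therefore did not always repeat.

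**Figure D4:**
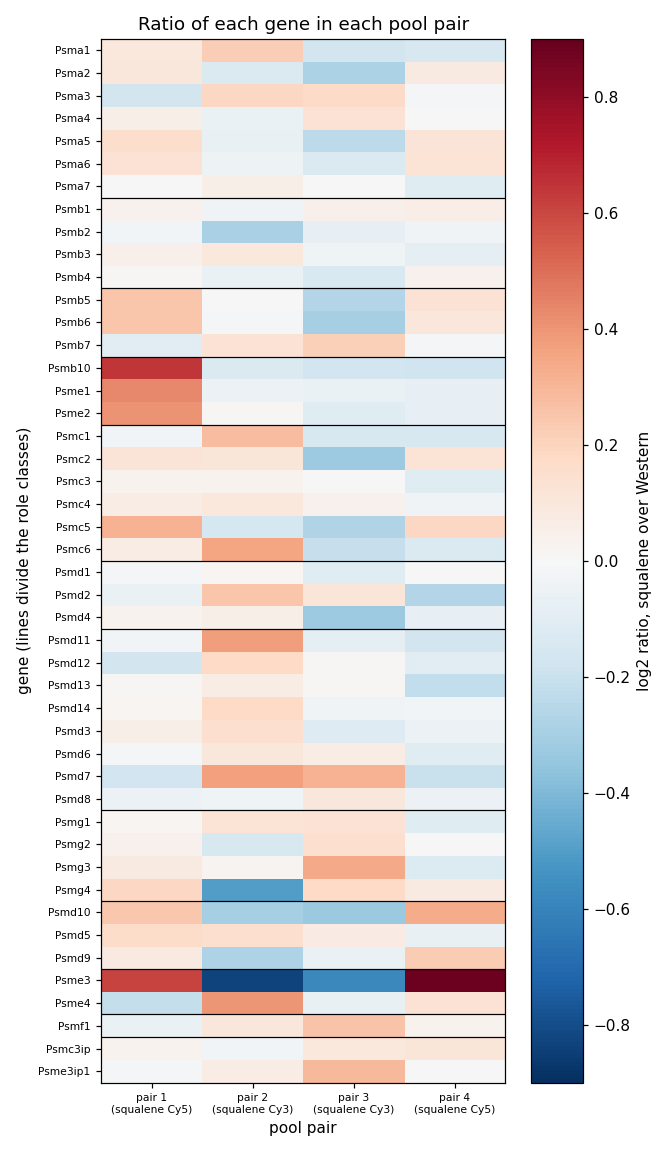
Log2 ratio, squalene over Western, of each of the 46 genes (rows, with lines between role classes) in each of the 4 pool pairs (columns, with the dye that squalene carried), red above 0 and blue below. Psme3 has the darkest cells, at 0.61, -0.83, -0.58 and 0.88, and Psmb10, Psme1 and Psme2 are red in pair 1.

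Assembly chaperones build the particles and do not stay in them. Of the 19S chaperones, Psmd5 read 10.02, 10.08, 9.82 and 9.86 log2 intensity in squalene pools and 9.86, 9.93, 9.74 and 9.93 in Western pools. Pools 5 and 6 were above all Western pools and the other 2 squalene pools were within their range, for a mean of 0.08 ± 0.11 (SD, n = 4) and an unadjusted limma p of 0.272. Psmd10, also called gankyrin, averaged -0.02 ± 0.35 and Psmd9 -0.0066 ± 0.22 (SD, n = 4). Of the chaperones of the 20S core, Psmg3 read 10.43, 10.48, 10.46 and 10.29 in squalene pools and 10.35, 10.45, 10.12 and 10.42 in Western pools, with a mean of 0.08 ± 0.19 (SD, n = 4). Western pool 3 was low for this gene, and without pair 3 its mean was 0.0021. Psmg1, Psmg2 and Psmg4 averaged 0.04 ± 0.11, 0.01 ± 0.12 and -0.01 ± 0.33 (SD, n = 4).

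For Psmg4, squalene pool 6 read 8.90 and the other squalene pools 9.61, 9.21 and 9.36, against 9.42, 9.40, 9.03 and 9.29 in Western pools, and pair 2 was at -0.50. Of the 2 partner proteins, Psme3ip1 read 9.33, 9.52, 9.42 and 9.37 in squalene pools and 9.34, 9.46, 9.13 and 9.37 in Western pools. Western pool 3 was again the low one, and the mean was 0.09 ± 0.14 (SD, n = 4) with an unadjusted limma p of 0.228. Psmc3ip was well above background in 3 of 4 squalene pools and 2 of 4 Western pools, so it passed the filter through the squalene pools alone, and its mean of 0.05 ± 0.06 (SD, n = 4), counted among the 31 above 0, is given as a description. Without the 2 partner proteins, 29 of 44 means were above 0, against 10694 of 20658 over all features.

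Of 11 genes with 2 probes, 9 had means of the same sign, but 2 (Psmc2 and Psmd10) had the same sign in all 4 pairs, and Psmb5 and Psmd9 in 1 pair. The largest gap between the means of 2 probes, 0.13, was larger than the mean of any member. The means of opposite sign were those of Psmd12, at -0.02 and 0.07, and Psmd9, at -0.0066 and 0.12, each with the brighter probe first. Across all 46 genes the median SD between pairs was 0.157, against 0.162 over all features, and the median size of the mean ratio was 0.0275, against 0.0431.

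Genes that work with the proteasome under other names were given by list. Of 12 partners, such as receptors, ubiquitin hydrolases and chaperones of the complex, 11 had a mean above 0 and 1 below, with a median of 0.04 and 0 at an unadjusted limma p under 0.05. Among them Pomp, which closes the assembly of the core, was at 0.25, -0.17, -0.09 and 0.20 in the 4 pairs, a mean of 0.05 ± 0.21 (SD, n = 4). Of 8 measured genes in the NRF1 route, 6 were above 0 and 2 below, with a median of 0.09 and 0 at an unadjusted limma p under 0.05. The median size of a mean ratio in that list was 0.0913, against 0.0275 for the proteasome genes and 0.0431 over all features. Its largest means were those of Syvn1 and Maff, named after their values were seen. Syvn1, a ubiquitin ligase of the endoplasmic reticulum, was at 0.41 ± 0.69 (SD, n = 4), with 1.41 in pair 2. Maff, a small partner of NRF1, was at 0.23 ± 1.10 (SD, n = 4). Nfe2l1 itself was at 0.25, 0.23, 0.14 and -0.07, a mean of 0.14 ± 0.15 (SD, n = 4), with an unadjusted limma p of 0.123. The means of Syvn1, Maff and Nfe2l1 were larger in size than that of any proteasome gene. Of 15 genes for ubiquitin, its activation and delivery, 11 were above 0 and 4 below, with a median of 0.04 and 0 at an unadjusted limma p under 0.05. Over all features, 10694 of 20658 means were above 0. Each of these lists also had 0 members past a Benjamini-Hochberg adjusted limma p of 0.05.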

How the data were processed

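Liver RNA pools were hybridised to two-colour arrays, and per the file headers the scans were read with version 10.7.3.1 of Agilent Feature Extraction. The deposited scanner files held intensity per spot and local background, beside the log10 of each spot's red signal over its green signal. A second deposited file, the authors' own values, gave log10 of squalene over Western, which 99.93% to 99.94% of spots matched within 0.001 when it was recomputed from median signals without normalisation, so scale and direction are known and nothing was centred (column medians 0.254, -0.217, 0.27, -0.257, -0.27 and 0.259). In its columns of pair 1, 4 cells were beyond the range of any log ratio and were not used. The deposited scanner files also held each spot's score as control, outlier or above background. The labels and headers do not state how that file was made.

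In R 4.3.3 with limma 3.58.1, intensities were background-corrected by normexp (offset 50) and loess-normalised within arrays, with 3671 control spots at weight 0 and outlier spots removed. Replicate spots were averaged within a probe, as were the arrays of pairs 1 and 2, which were run on both slides (pairs 3 and 4 on slide 2). A probe was kept if well above background in at least 3 of 4 pairs in either diet, which kept 26853 probes and removed 28828. RefSeq (GRCm38.p6) named 26762 of 55681 probes, and the brightest probe stood for a gene. The limma model (lmFit, eBayes; 2 residual and 3.039 prior degrees of freedom) had terms for the dye and for squalene, and p-values were adjusted by Benjamini-Hochberg over 20658 features. A log2 ratio had a median SE of 0.062 for members and 0.065 for all features. The number of pool pairs limits this precision. Levels are Aquantile-normalised log2 intensities of single channels, taken after loess and comparable only within a probe. They have no correction for a dye effect of the single probe. Squalene pools 5 and 8 and Western pools 2 and 3 were read in Cy5, the other pools in Cy3. The order of pools therefore includes any such effect.

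Named in full were the 12 members of smallest unadjusted p, the catalytic subunits, activators, inhibitor and lid peptidase, and by summary those with the brightest and dimmest probe in a role class. Of the other lists, genes at an unadjusted p under 0.05 and Nfe2l1, Pomp, Psmb8 and Psmb9 were named. The members and lists were chosen with earlier results of these data known. Alternatives varied background, normalisation, probe filter, dye term, variance model, slide, the use of second probes and the replicates.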

Additional observations from a re-analysis of the deposited data

Results flagged for a closer look

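For 6 of 46 genes, 1 of the 4 pool pairs lay far from the rest, its gap to the nearest other pair taking more than 0.829 of the range (Dixon's 95% value). Chance flags about 1 gene in 20, and 4.74% of all features met it. Psmb10 and Psme1 stood out in pair 1, at 0.64 and 0.43. Psmb2 and Psmg4 stood out in pair 2, at -0.29 and -0.50. Psmc2, an ATPase of the 19S base, stood out in pair 3, at -0.33, and Psmd8, a lid subunit, also in pair 3, at 0.10. Each of these values is 1 squalene pool against 1 Western pool, and the causes were not tested.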

How the results depend on the processing

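Under 15 alternatives, 0 of the members measured passed a Benjamini-Hochberg adjusted limma p of 0.05, and 0 were lower at an unadjusted p under 0.05. At an unadjusted p under 0.05, 0 to 1 members were higher when 1 replicate was left out, the 1 being Psmb10 without replicate 4 (0.25, against -0.17 without replicate 1), and 0 in the other alternatives. The median of the members, 0.0151, ran from -0.0146 without replicate 2 to 0.037 without replicate 3. Members above 0 in all pairs numbered 2 to 5 when 1 replicate was left out, and those below 0 in all pairs 1 to 4. Fewer pairs make this easier: 8.24% to 9.61% of all features were then above 0 throughout. The 1 member below 0 in all pairs, Psmb2, was lost (0 members) with scanner-processed signals, median centring, the deposited value table, slide 2 arrays only, and 6 arrays with a slide term and pool pair as random block, and its mean ran from -0.16 to -0.051 over all settings. Over all features, 0 passed the adjusted p in the reported fit, 2 with median centring, 8 with the deposited value table and 4 with the 6 arrays and slide term. Between 0 and 16 of the 46 genes changed the sign of their mean, most without replicate 2. The causes of these shifts were not tested. Of the 46 genes, 45 were well above background in both channels of all 4 pairs, and the number of pool pairs limits the precision. Every array sets a squalene pool against a Western pool, so the ratios are paired by design.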

Other observations

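Marker genes of liver cells had a median SD between pairs of 0.439 for hepatocyte, 0.477 for fibroblast, 0.801 for red cell and 0.49 for macrophage markers. It was 0.329 for lymphocyte and natural killer markers, 0.157 for the proteasome genes and 0.162 over all features. These SDs include any difference between the dye orientations. Of 10 measured markers of fibroblasts and stellate cells, 9 had a mean below 0 (median -0.29) and 5 were lower at an unadjusted limma p under 0.05: the collagens Col1a1, Col1a2 and Col3a1, the matrix proteoglycan Lum and the protease inhibitor Timp1, at -0.47, -0.38, -0.40, -0.35 and -0.45. Of 7 red cell markers, all 7 were below 0 (median -0.48), and the haemoglobin genes Hba-a1, Hba-a2, Hbb-bt and Hbb-b2 were lower at that unadjusted p, at -0.54, -0.50, -0.54 and -0.48. The remaining red cell markers, named after their values were seen, were Hbb-bs at -0.47, Alas2, of haem synthesis, at -0.05 and the anion exchanger Slc4a1 at -0.02. Of 12 macrophage markers, 11 were below 0 (median -0.18), with the endotoxin co-receptor Cd14 lower at -0.32. Of 12 lymphocyte and natural killer markers, Gzma, a cytotoxic granule protease, was higher at 0.29. At that unadjusted p, 1.42% of all features were lower and 1.06% higher. A mean below 0 was found for 9953 of all 20658 features. None of the genes named as lower was below 0 in all 4 pairs, and the p-values come from a fit whose dye term takes up the difference between orientations. None passed a Benjamini-Hochberg adjusted limma p of 0.05 (0 in each list).

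The means of the fibroblast and red cell lists were low in the pairs with squalene in Cy3, though Alas2 went the other way, at -0.34, 0.08, 0.26 and -0.21 in pairs 1 to 4, and Slc4a1 was at 0.02, 0.15, -0.24 and -0.0026. The fibroblast markers averaged 0.163, -0.68, -0.541 and 0.053 in pairs 1 to 4, and the red cell markers 0.047, -0.447, -1.202 and 0.117. The macrophage markers averaged 0.173 and 0.255 in pairs 1 and 2 and -0.591 and -0.52 in pairs 3 and 4, so they did not follow the dyes.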
